A study of Mus musculus with 12 samples.

Results

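The genes of mitochondrial ribosomal proteins were taken from the deposited count table by symbol, as the rows that begin with Mrpl or Mrps followed by a number. This gave 81 of 29564 genes, 50 named for the large subunit (Mrpl) and 31 for the small subunit (Mrps). Their levels were measured by poly(A) RNA sequencing of the left ventricle of 12 wild-type C57BL6 mice, male per the study's methods, with 4 mice in each group and a single library from each mouse. Control-Veh mice (libraries C1 to C4) were non-failing and received vehicle, a mixture of DMSO, PEG-300 and water. HFpEF-Veh mice (V1 to V4) had the HFpEF model (heart failure in which the ejection fraction is preserved), in which a diet rich in fat is joined with L-NAME, a blocker of nitric oxide synthesis, and received the same vehicle. HFpEF-TYA-018 mice (T1 to T4) carried this model and were given TYA-018, which blocks the deacetylase HDAC6, orally at 15 mg/kg. The series title speaks of a single dose, the treatment text of the labels of daily dosing over weeks, and the study of hearts taken hours after a dose. The title was followed. The model was made by diet and drug, and no group without the model received TYA-018. The labels give no age or batch.

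Mitochondria carry their own ribosome, which translates a small set of membrane proteins of the respiratory chain and ATP synthase that the mitochondrial genome encodes. Its RNAs come from that genome, but all of its proteins are encoded in the nucleus, made in the cytosol and imported. The large subunit holds the peptidyl transferase centre, where amino acids are joined, the exit tunnel for the new chain, a central protuberance, and stalks that handle transfer RNAs and translation factors. The small subunit binds the messenger RNA and holds the decoding centre. Some proteins of either subunit descend from bacterial ribosomal proteins, and others were added during the evolution of mitochondria. Heart muscle is dense in mitochondria, and Mrpl3, Mrpl44 and Mrps22 are among the genes of this family in which inherited defects cause cardiomyopathy in people.

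Of the 81 genes, 77 passed the filter on low counts and were tested, 48 of the large and 29 of the small subunit. These were all of the protein-coding genes found by the rule. The 4 that were not tested were the processed pseudogenes Mrpl23-ps1, Mrpl48-ps, Mrps36-ps1 and Mrps36-ps2, with an estimated count of at most 8.14 in any library. A single symbol is misleading, since Mrps36 encodes a subunit of the alpha-ketoglutarate dehydrogenase complex and no ribosomal protein. It stays in the counts. Mrps18a and Mrps30 are named for the small subunit but sit in the large one. Total estimated counts were between 61.2 and 83.9 M per library, and the 77 genes took 0.227% to 0.346% of them.

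Values are given as CPM, the read counts of a gene scaled to the size of its library, with library sizes adjusted by trimmed means (TMM). CPM compares libraries but not genes, because long transcripts collect more reads. Fold changes and p-values come from a quasi-likelihood model of edgeR fitted to the 14333 tested genes in the 12 libraries, and a gene is called at an adjusted p under 0.05. Fold changes are on the log2 scale throughout, and those given without an SE come from the same model. Each library carries its own animal number in the labels.

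Per transcript length, in the authors' TPM, transcript levels scaled to a fixed total, the 77 genes spanned a wide range, with a median of 23.0 TPM over the mean of 12 libraries. In the small subunit, Mrps21 had the highest mean at 347 TPM, followed by Mrps36 at 74.1 and Mrps35 at 66.3 TPM. In the large subunit, Mrpl42 had 159 TPM, Mrpl30 108 TPM and Mrpl12, which forms the flexible stalk that recruits translation factors, 93.2 TPM. The lowest were Mrpl57 at 0.197 TPM, Mrpl11 at 0.539 TPM and Mrpl49 at 0.956 TPM in the large subunit, and Mrps16 at 0.333 TPM, Mrps30 at 1.79 TPM and Mrps2 at 2.31 TPM in the small. The low end rests on deposited effective lengths, the transcript lengths by which the authors divided. For 13 of the 77 genes, which include these 6 and also Mrpl9, Mrpl10 and Mrpl45, the mean effective length exceeded the longest transcript of the GENCODE M21 annotation, as for Mrpl57 with 8089.7 against 2877 bases. Levels of these genes per length are therefore uncertain, and the order of the family is read only among the others. The high value of Mrps21 also rests on its effective length, 82.0 bases where its longest transcript has 488. Without division by length Mrps21 averaged 79.3 CPM, beside 64.5 CPM for Mrps35, so its lead per length is uncertain too.

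Both subunits were lower in the HFpEF-Veh than in most Control-Veh libraries, and higher in every HFpEF-TYA-018 library than in every HFpEF-Veh library. The summed CPM of the 48 large subunit genes was 1555, 2076, 1839.5 and 1947 CPM in C1 to C4, 1579.5, 1692, 1667 and 1656 in V1 to V4 and 2017, 1971, 1811 and 1810.2 in T1 to T4. That of the 29 small subunit genes was 878, 1169, 1018 and 1090.4 CPM in C1 to C4, 881, 942, 906 and 898 in V1 to V4 and 1068, 1085, 1007 and 1012 in T1 to T4. C1 stood apart from the other control libraries and had the lowest sum of the 12 libraries in both subunits. The group means of the large subunit were 1854 ± 222 CPM for C1 to C4, 1649 ± 48.4 for V1 to V4 and 1902 ± 108 for T1 to T4 (SD, n = 4). The small subunit averaged 1039 ± 124, 906 ± 25.7 and 1043 ± 39.3 CPM (SD, n = 4). The subunits kept their proportion, with 1.77 to 1.89 times as much CPM in the large as in the small subunit in every library. In such bulk tissue, fewer heart muscle cells and less RNA per cell cannot be told apart.

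**Figure D1:**
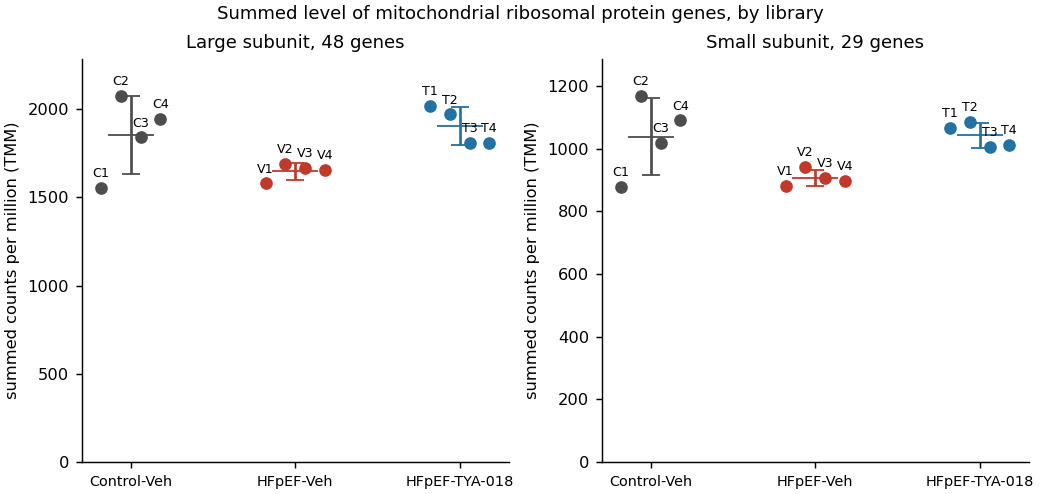
Summed CPM of the 48 large (left) and 29 small (right) subunit genes in each library, with bars for group mean and SD (n = 4). All HFpEF-TYA-018 libraries lie above all HFpEF-Veh libraries in both panels, and control library C1 lies with the HFpEF-Veh libraries.

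To ask what the HFpEF model changed, HFpEF-Veh was compared with Control-Veh. Of the 77 genes, 13 fell (16.9%), beside 10.3% of all tested genes that were called lower. None was called higher by edgeR or DESeq2, beside 10.9% of all genes, and 2 were above 0 at an unadjusted p under 0.05 by edgeR. The fold change was below 0 for 71 of the 77 genes, and their median log2 fold change was -0.15 beside -0.01 over all genes. The median stayed below 0 under all scalings tried but shrank on some, to -0.11 with effective lengths in the model (57 genes below 0 and 20 above) and to -0.05 on the study's rescaled TPM (47 below and 30 above). In the large subunit 6 of 48 genes fell and in the small subunit 7 of 29, with medians of -0.13 and -0.15. The count of called genes and the share of all genes called lower both changed when a library was left out. Without library C1 the count was 34, beside 13.4% of all genes. It was 5 without C2 (all genes 6.74%), 4 without C4 (6.33%) and 7 without V1 (8.32%). It was 6 without V3 (6.41%) and 6 without V4 (7.04%). Without V2, 2 genes were called higher, beside 8.75% of all genes. Groups overlapped for most genes, since only 5 of the 77 had every HFpEF-Veh library below every Control-Veh library, 6.49% beside 11.5% of all genes.

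Among large subunit genes with a called decrease, Mrpl9 and Mrpl39 held their calls when any 1 of the 12 libraries was left out. Mrpl9, the counterpart of a bacterial large subunit protein, had 34.1, 34.7, 32.9 and 32.4 CPM in C1 to C4, 26.4, 27.9, 28.5 and 29.4 in V1 to V4 and 38.5, 39.6, 36.4 and 37.4 in T1 to T4. The 4 HFpEF-Veh libraries were the lowest 4 of the 12, with a log2 fold change of -0.26 ± 0.05 (SE, edgeR adjusted p = 0.00444). Mrpl39, a mitochondrial addition with a domain like that of aminoacyl-tRNA synthetases, had 36.0, 45.0, 40.8 and 46.2 CPM in C1 to C4, 34.2, 34.0, 33.6 and 32.3 in V1 to V4 and 40.6, 37.6, 38.0 and 36.8 in T1 to T4. Its HFpEF-Veh libraries were again the lowest 4, with a log2 fold change of -0.33 ± 0.07 (SE, edgeR adjusted p = 0.00882). The other 4 were Mrpl38, of the central protuberance, at -0.31 (adjusted p = 0.0178), Mrpl57 at -0.42 (adjusted p = 0.0373), Mrpl4, which lines the exit tunnel, at -0.27 (adjusted p = 0.0369), and Mrpl2, a core protein beside the peptidyl transferase centre, at -0.29 (adjusted p = 0.0393). In each of these 4 genes the groups overlapped, with C1 below the highest HFpEF-Veh library. Mrpl38 lost its call without C2, C4 or V3, and the other 3 lost it without any of 7 or 9 libraries.

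In the small subunit, Mrps15 and Mrps7 kept their calls in the same test. Mrps15, a binder of ribosomal RNA inherited from bacteria, had 43.7, 63.0, 50.7 and 59.2 CPM in C1 to C4, 38.7, 42.4, 36.7 and 37.6 in V1 to V4 and 46.5, 46.9, 43.7 and 44.7 in T1 to T4. The fall of -0.48 ± 0.10 (SE, edgeR adjusted p = 0.00576) was the steepest among called genes of the family, and the groups did not overlap. Mrps7, a protein of the head of the small subunit, had 53.8, 69.2, 58.8 and 60.2 CPM in C1 to C4, 45.2, 51.2, 48.2 and 49.6 in V1 to V4 and 65.4, 64.1, 59.9 and 58.0 in T1 to T4. It showed a log2 fold change of -0.32 ± 0.08 (SE, edgeR adjusted p = 0.0127), with all HFpEF-Veh libraries below all controls. Mrps5, which lies at the entry of the messenger RNA, fell by 0.32 on the log2 scale (adjusted p = 0.0183), also with no overlap, and lost its call without C4 or V4. The remaining 4 were Mrps27 at -0.31 (adjusted p = 0.0217), Mrps35 at -0.38 (adjusted p = 0.0238), Mrps24 at -0.33 (adjusted p = 0.0310) and Mrps28 at -0.34 (adjusted p = 0.0342). In these 4 the controls without C1 lay above all HFpEF-Veh libraries, and each call was lost without C2 or C4, among others.

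The effect of TYA-018 within the model was read from HFpEF-TYA-018 against HFpEF-Veh. Here 21 of the 77 genes rose (27.3%), beside 8.93% of all tested genes called higher. None was called lower by edgeR or DESeq2, beside 10.4% of all genes, and none was below 0 at an unadjusted p under 0.05 in edgeR. The fold change was above 0 for 73 of the 77 genes, with a median of 0.20 beside 0.00 over all genes. The median stayed above 0 under all scalings tried, but was 0.10 with effective lengths in the model and 0.09 on the rescaled TPM, each with 57 genes above 0 and 20 below. The large subunit had 12 of 48 genes called and the small subunit 9 of 29, with medians of 0.20 in both. For 35 genes (45.5%) every treated library lay above every HFpEF-Veh library, beside 12% of all genes, and all 21 called genes were among them. The count of called genes was 7 without T1, beside 4.49% of all genes called higher, and 8 without T2 (all genes 5.04%). It was 9 without V1 (6.23%), 10 without V4 (5.88%) and 12 without V3 (5.95%). The HFpEF-Veh libraries serve in both comparisons, so the fall and the rise are not independent of each other.

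Of the 12 large subunit genes, Mrpl9, Mrpl37, Mrpl10 and Mrpl28 kept their calls when any 1 library was left out. Mrpl9, whose levels are given above, had a log2 fold change of 0.44 ± 0.05 (SE, edgeR adjusted p = 0.000637), and its 4 treated libraries were the highest of the 12. Mrpl37, a mitochondrial addition, had 42.4, 46.4, 45.1 and 43.0 CPM in C1 to C4, 39.8, 39.6, 44.5 and 39.8 in V1 to V4 and 57.6, 53.6, 50.4 and 47.1 in T1 to T4. Its treated libraries again exceeded the other 8, with a log2 fold change of 0.35 ± 0.07 (SE, edgeR adjusted p = 0.00551). Mrpl10, which anchors the stalk at the ribosome body, had 31.6, 32.2, 33.3 and 32.3 CPM in C1 to C4, 27.3, 30.96, 33.0 and 29.3 in V1 to V4 and 36.8, 37.8, 36.0 and 35.3 in T1 to T4, and a log2 fold change of 0.27 ± 0.06 (SE, edgeR adjusted p = 0.00809). It too was highest in the 4 treated libraries. Mrpl28 had 62.9, 90.2, 71.7 and 75.0 CPM in C1 to C4, 66.0, 68.3, 63.2 and 61.2 in V1 to V4 and 94.6, 94.4, 81.6 and 79.9 in T1 to T4. It showed a log2 fold change of 0.44 ± 0.10 (SE, edgeR adjusted p = 0.0116), and its treated libraries overlapped with control library C2.

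The other 8 genes of the large subunit were closer to the threshold. Mrpl38 rose by 0.31 (adjusted p = 0.0182), Mrpl16, a core protein near the peptidyl transferase centre, by 0.27 (adjusted p = 0.0261), and Mrpl45, which docks the ribosome at the inner membrane beside the tunnel exit, by 0.23 (adjusted p = 0.0269). Mrpl2 stood at 0.31 (adjusted p = 0.0338), Mrpl21 at 0.31 (adjusted p = 0.0374) and Mrpl57 at 0.41 (adjusted p = 0.0453). Mrpl44, with a fold like that of double-strand RNA nucleases, stood at 0.23 (adjusted p = 0.0462). Mrpl53, of the stalk region, stood at 0.29 (adjusted p = 0.0469), but 84.4% of its 31-base words also occur in the gene Gm42688, so that its value is uncertain. All 8 lost the call without T1, Mrpl38 also without V3, and the other 7 without 3 to 9 libraries each. In 18 tested members of the family, Mrpl53 included, over 10% of 31-base words occur in other genes. Among them are the called genes Mrpl21 (10.2%), Mrpl45 (11.6%), Mrps5 (10.4%) and Mrps24 (15.4%). Mrps21 (14.5%) and Mrps36 (21.0%), which were not called by edgeR, are also among them.

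Of the 9 small subunit genes, Mrps7, Mrps14 and Mrps28 kept their calls in each of the 12 fits with a library left out. Mrps7, whose levels are given above, had a log2 fold change of 0.35 ± 0.08 (SE, edgeR adjusted p = 0.00917), and no treated library reached the level of C2. Mrps14, a bacterial-type protein of the head, had 21.0, 25.1, 21.7 and 26.9 CPM in C1 to C4, 21.8, 22.6, 22.4 and 20.7 in V1 to V4 and 27.5, 28.0, 26.1 and 27.4 in T1 to T4. It showed a log2 fold change of 0.32 ± 0.08 (SE, edgeR adjusted p = 0.0140). Mrps28, also with a bacterial counterpart, had 24.0, 34.96, 27.7 and 31.4 CPM in C1 to C4, 21.9, 24.8, 23.9 and 22.5 in V1 to V4 and 33.4, 33.4, 28.4 and 30.1 in T1 to T4. It showed a log2 fold change of 0.43 ± 0.10 (SE, edgeR adjusted p = 0.0146), and its treated libraries lay within the range of C2 to C4. The other 6 were Mrps11 at 0.34 (adjusted p = 0.0217), Mrps12, a protein of the decoding centre, at 0.34 (adjusted p = 0.0258), Mrps31 at 0.25 (adjusted p = 0.0267), Mrps27 at 0.30 (adjusted p = 0.0269), Mrps24 at 0.33 (adjusted p = 0.0337) and Mrps23 at 0.21 (adjusted p = 0.0477). Each of these 6 lost its call when any of T1, T2 and V1 was left out. Mrps11 and Mrps23 also turned below 0 when the deposited effective lengths entered the model, at -0.13 and -0.01.

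The genes that kept a call with any 1 library left out, though not under every other alternative, lie on several chromosomes (GRCm38, whole gene as annotated by GENCODE M21). Those of the large subunit are Mrpl9 at chr3:94443318-94451130, Mrpl10 at chr11:97041560-97049213, Mrpl28 at chr17:26123500-26126613, Mrpl37 at chr4:107055874-107066868 and Mrpl39 at chr16:84717576-84735742. Those of the small subunit are Mrps7 at chr11:115603925-115608036, Mrps14 at chr1:160195215-160202170, Mrps15 at chr4:126046925-126055532 and Mrps28 at chr3:8802146-8923918.

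**Figure D2:**
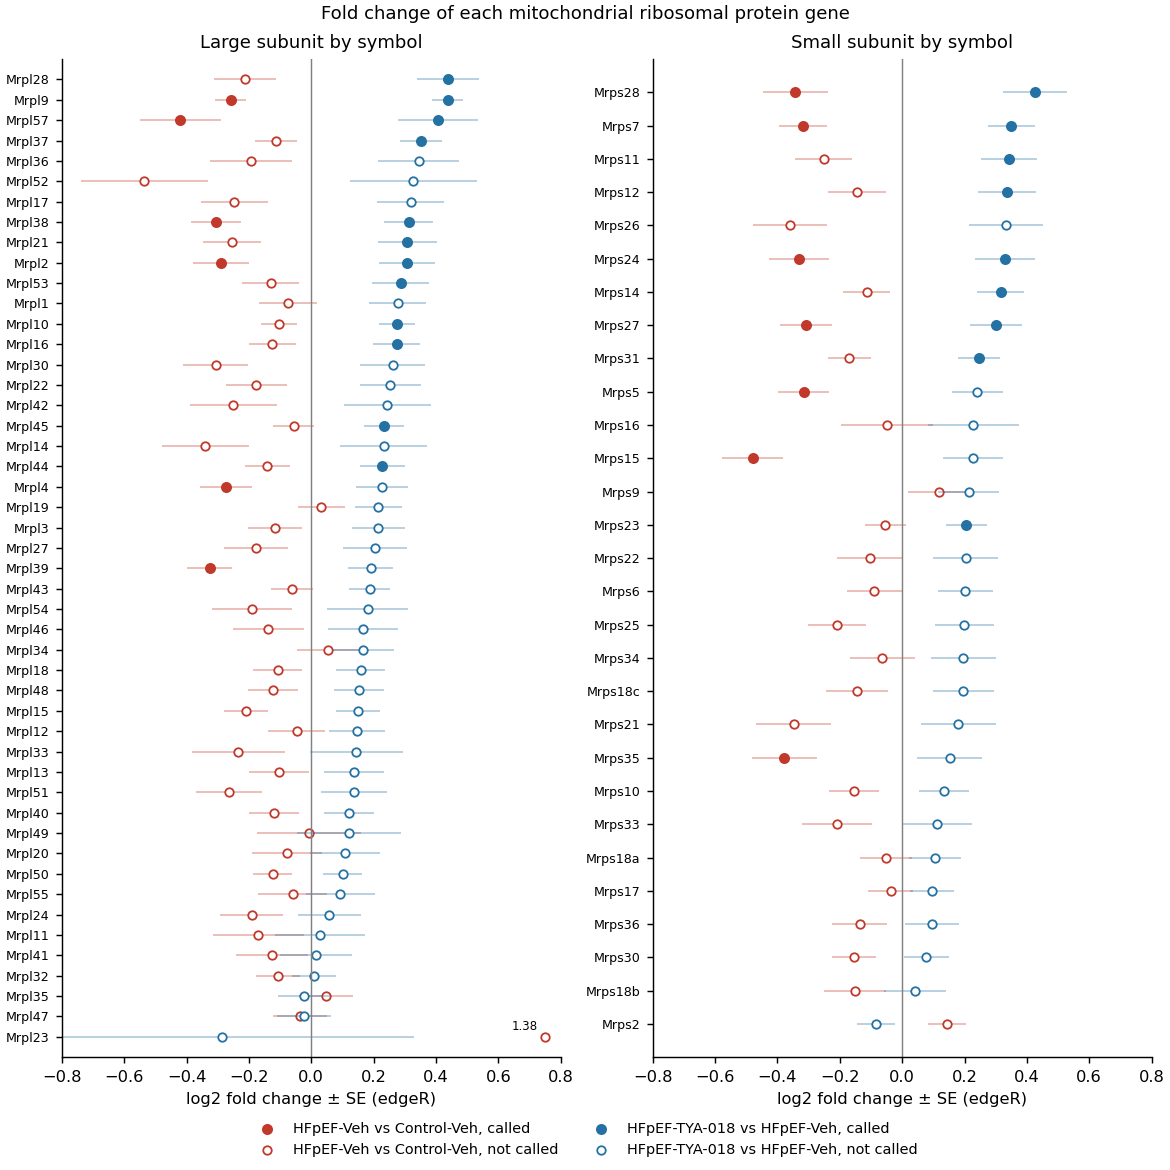
Log2 fold change ± SE of each of the 77 genes in HFpEF-Veh against Control-Veh (red) and HFpEF-TYA-018 against HFpEF-Veh (blue), filled where called. Of the red points 71 lie below 0 and of the blue points 73 above 0, with 13 and 21 called. The red point of Mrpl23 lies off the axis at 1.38, and both comparisons share the HFpEF-Veh libraries.

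After treatment, no gene of the family was called against Control-Veh in either direction by edgeR, beside 2.74% of all tested genes called lower and 3.12% called higher. At an unadjusted p under 0.05, 1 gene was lower and 11 were higher. DESeq2 called 4 higher, Mrpl9, Mrpl37, Mrps9 and Mrpl19, beside 5.42% of all genes. The nearest to the threshold among genes named here were Mrpl9 at 0.18 (adjusted p = 0.0533) and Mrpl37 at 0.24 (adjusted p = 0.0585). The median log2 fold change was 0.03, with 47 genes above 0 and 30 below. Its sign turned without library C1, at -0.04 with 2 genes called lower, beside 2.61% of all genes. The median was -0.0027 with effective lengths in the model. Without T1 or without T4, 1 gene was called higher, beside 1.48% and 1.96% of all genes. Mrps15 stood at -0.25 (adjusted p = 0.147) and Mrps35 at -0.23 (adjusted p = 0.224). A p above the threshold does not show that treated hearts and controls had equal levels.

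**Figure D3:**
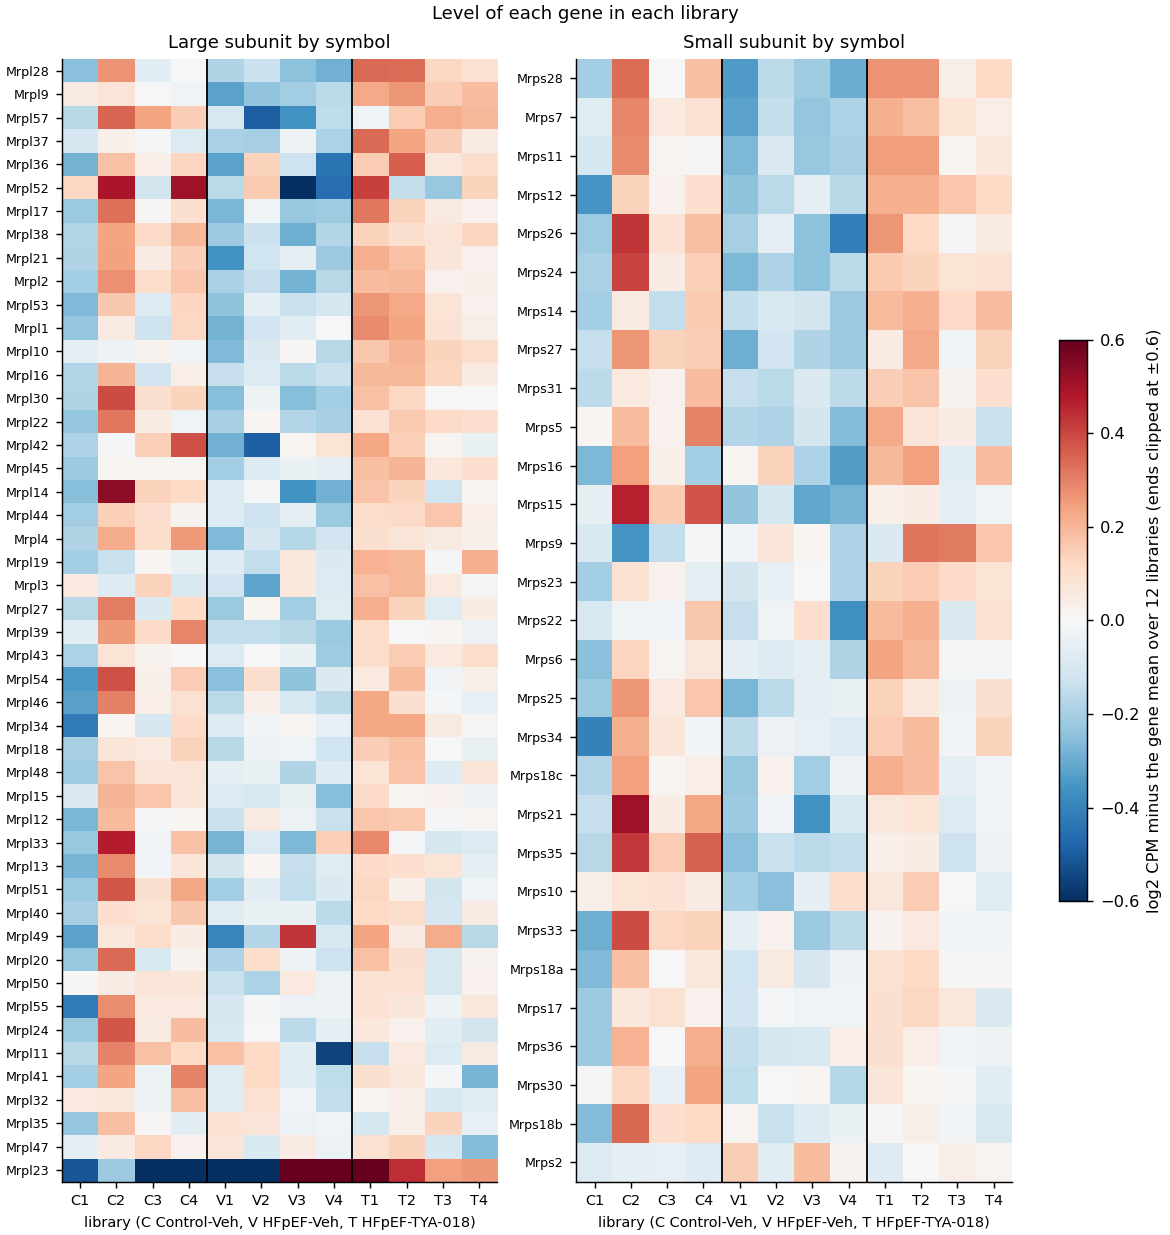
Level of each of the 77 genes in each library as log2 CPM minus the mean of that gene over 12 libraries, with colours clipped at 0.6 and genes ordered by the fold change with TYA-018. Most genes are below their mean (blue) in V1 to V4 and in C1 and above it (red) in C2, C4, T1 and T2, and Mrpl23 is the most variable row.

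Places in the ribosome are given as counts of few genes, to be read beside the 10.3% of all genes called lower with the model and the 8.93% called higher with TYA-018, and several lie near these shares. Differences between regions were not tested. Of 18 core proteins of the large subunit with bacterial counterparts, 2 fell with the model and 5 rose with TYA-018, with medians of -0.20 and 0.22. Of 8 proteins at the exit tunnel and the membrane, 2 fell (Mrpl4 and Mrpl39) and 2 rose (Mrpl44 and Mrpl45). Of 6 proteins of the stalks, edgeR called none with the model, 0 of them at an unadjusted p under 0.05, and 2 rose with TYA-018 (Mrpl10 and Mrpl53). Of 7 proteins of the central protuberance, only Mrpl38 was called, in both comparisons. Of 11 other proteins of the large subunit, Mrpl57 fell, and Mrpl57 and Mrpl37 rose. In the small subunit 5 of 16 proteins with bacterial counterparts fell and 6 rose, and of 10 other proteins 2 fell (Mrps27 and Mrps35) and 3 rose (Mrps23, Mrps27 and Mrps31). The groups of 11 and 10 other proteins are mostly mitochondrial additions but hold Mrps18a and Mrps18b, which were not called and are related to a bacterial protein.

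Several well studied members were not called by edgeR. Mrpl1, of the mobile stalk beside the exit site, had -0.08 with the model and 0.28 (adjusted p = 0.0550) with TYA-018. Mrpl3 had -0.12 and 0.22 (adjusted p = 0.0988), and Mrpl12 -0.05 and 0.15 (adjusted p = 0.283). Mrpl12 was called higher with the model on the study's own scale of rescaled TPM, at 0.26. Mrps22 had -0.10 and 0.20 (adjusted p = 0.198). DESeq2 did call Mrpl1 higher with TYA-018. Among the highest members per length, edgeR gave -0.35 (adjusted p = 0.0581) for Mrps21, -0.25 (adjusted p = 0.220) for Mrpl42 and -0.31 (adjusted p = 0.0542) for Mrpl30 with the model, and DESeq2 called Mrps21 and Mrpl30 lower. Mrps18a, Mrps18b and Mrps18c, which are related to the same bacterial small subunit protein, were not called by edgeR. With TYA-018 Mrps18a had 0.10 (adjusted p = 0.404), Mrps18b 0.04 (adjusted p = 0.812) and Mrps18c 0.20 (adjusted p = 0.188). Mrps30 had 0.08 (adjusted p = 0.484) and the non-ribosomal Mrps36 0.10 (adjusted p = 0.483).

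On the CPM scale 3 members, Mrps2, Mrpl23 and Mrpl35, were above 0 with the model and below 0 with TYA-018, none of them called. Mrpl19, Mrpl34 and Mrps9 were above 0 with the model, and Mrpl47 was below 0 with TYA-018, also without a call. Mrpl35 was near 0 in both comparisons, at 0.05 and -0.02. On log2(TPM + 1), of Mrps2 and Mrpl23 only Mrpl23 with the model kept its sign. Mrpl23 is described because of its values. Mrps2, of the small subunit, had 18.6, 18.9, 19.0 and 18.7 CPM in C1 to C4, 21.9, 18.8, 22.5 and 20.0 in V1 to V4 and 18.7, 19.7, 20.2 and 19.9 in T1 to T4. Its fold change was 0.14 (adjusted p = 0.115) with the model and -0.08 (adjusted p = 0.365) with TYA-018, neither called, against -0.06 and 0.31 on log2(TPM + 1). Mrpl23, which lies at the tunnel exit, had 6.31, 7.74, 4.86 and 5.68 CPM in C1 to C4, 4.62, 2.07, 27.8 and 29.6 in V1 to V4 and 18.9, 12.2, 10.7 and 10.8 in T1 to T4. V3 and V4 were the highest of the 12 libraries and V1 and V2 the lowest. The spread of Mrpl23 within groups, an SD of 1.14 on the log2 scale, compared with a median of 0.14 over the 77 genes. Its fold changes were 1.38 (adjusted p = 0.139) and -0.29 (adjusted p = 0.785), against 0.73 and 0.57 on log2(TPM + 1). Of its 31-base words 14.0% occur in other genes, and whether this bears on the split was not tested.

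Proteins of this ribosome with other symbols were few. Gadd45gip1, a mitochondrial addition to the large subunit, fell with the model by 0.45 on the log2 scale (adjusted p = 0.0153). Dap3, which binds GTP in the small subunit, rose with TYA-018 by 0.32 (adjusted p = 0.0406). It lost this call in 9 of the 12 fits with a library left out, whereas Gadd45gip1 kept its call. Mrpl58, listed under its older symbol Ict1, is a peptidyl-tRNA hydrolase built into the central protuberance and stood at -0.32 (adjusted p = 0.0502) with the model. Aurkaip1 stood at -0.35 (adjusted p = 0.0699), Chchd1 at -0.14 (adjusted p = 0.367) and Ptcd3 at 0.06 (adjusted p = 0.808). The ribosomal RNAs mt-Rnr1 and mt-Rnr2 were not analysed here.

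The starts of genes that moved most clearly are shown so that motifs of factors known to drive nuclear mitochondrial genes can be read. They belong to the members with the smallest p of each subunit in either comparison. The sequences are from RefSeq on GRCm38.p6 and run from 250 bases before the start to 30 bases into the transcript, with motif matches in capitals. Mrpl39 and Mrps7 met the same rule, but their RefSeq starts lie 498 and 215 bases inside the GENCODE gene, so they are not shown.
Mrpl9, chr3:94443086-94443365, plus strand: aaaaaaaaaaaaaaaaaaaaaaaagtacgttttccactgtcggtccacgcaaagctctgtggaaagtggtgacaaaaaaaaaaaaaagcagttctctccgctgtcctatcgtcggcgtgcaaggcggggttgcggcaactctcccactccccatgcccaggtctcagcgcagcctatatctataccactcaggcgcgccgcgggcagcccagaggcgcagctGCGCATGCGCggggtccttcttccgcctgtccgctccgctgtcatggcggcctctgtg
Mrps15, chr4:126046678-126046957, plus strand: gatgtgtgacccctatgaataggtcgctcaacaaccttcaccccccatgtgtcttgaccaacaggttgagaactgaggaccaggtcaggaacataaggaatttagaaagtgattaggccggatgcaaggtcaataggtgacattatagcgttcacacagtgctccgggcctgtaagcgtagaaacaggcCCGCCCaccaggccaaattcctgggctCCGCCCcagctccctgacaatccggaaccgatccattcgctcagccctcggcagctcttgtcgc
Mrpl37, chr4:107066837-107067116, minus strand: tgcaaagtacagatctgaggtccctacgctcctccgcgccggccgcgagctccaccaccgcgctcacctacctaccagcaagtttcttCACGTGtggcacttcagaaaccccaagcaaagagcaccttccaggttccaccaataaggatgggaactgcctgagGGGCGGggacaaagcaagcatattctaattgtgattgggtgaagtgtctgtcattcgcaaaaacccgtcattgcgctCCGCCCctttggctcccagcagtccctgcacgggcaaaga
Mrps14, chr1:160194965-160195244, plus strand: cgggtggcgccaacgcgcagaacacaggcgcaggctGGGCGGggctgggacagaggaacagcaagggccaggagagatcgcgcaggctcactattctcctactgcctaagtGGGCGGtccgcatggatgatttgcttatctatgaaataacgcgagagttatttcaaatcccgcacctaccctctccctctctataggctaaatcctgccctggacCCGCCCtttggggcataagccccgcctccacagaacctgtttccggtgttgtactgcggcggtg
The capitals in Mrpl9 are a match to the motif of NRF1, a regulator of respiratory genes, that reads on both strands and begins 28 bases before the start on the plus strand of the gene and 27 on the other. Those in Mrps15 and Mrps14 match the motif of SP1, which binds many promoters. Mrpl37 holds matches to SP1 and an E-box, the site of MYC-like factors.

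Motifs were searched on both strands in the 300 bases around each start, for 68 of the 77 genes with a RefSeq promoter. The NRF1 motif GCGCANGCG was in 23.5% of the family, beside 14.3% of promoters of tested genes and 7.03% of all promoters. The motif CCGGAAG of ETS factors such as GABPA was in 36.8%, beside 18.4% and 9.93%. The motif AAGATGGC of YY1 was in 17.6%, beside 4.83% and 3.19%. GGGCGG of SP1 was in 50.0%, beside 66.5% and 38.2%, and the E-box CACGTG was in 7.35%, beside 11.3% and 8.09%. TCAAGGTCA of the estrogen-related receptor ESRRA was in no member, beside 0.345% and 0.466%. Of the 22 promoters of genes called in either comparison, 27.3% held each of the NRF1, ETS and YY1 motifs, and of the 46 others 21.7%, 41.3% and 13%. RefSeq starts inside the GENCODE gene stay in these counts, among them Mrpl39 with an NRF1 match and Mrps7 with a YY1 match. These shares describe letters in a window and show no binding.

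The wider machinery of mitochondrial translation was taken from fixed lists. Counts from these lists are to be read beside all genes, of which 10.3% were called lower with the model and 8.93% higher with TYA-018. Some counts are small and lie near these shares. Of 18 translation factors 3 fell with the model and 6 rose with TYA-018, with medians of -0.15 and 0.21. Tufm, the elongation factor that brings transfer RNAs, stood at -0.32 (adjusted p = 0.0114) and 0.49 (adjusted p = 0.00213). Its exchange factor Tsfm stood at -0.14 (adjusted p = 0.266) and 0.55 (adjusted p = 0.00207), and was above Control-Veh after treatment at 0.41 (adjusted p = 0.0188). Of 24 assembly factors 7 fell and 9 rose, with medians of -0.22 and 0.23. Among them were the pseudouridine synthase Rpusd4 at -0.55 (adjusted p = 0.00144) and 0.56 (adjusted p = 0.00176), and the GTPase Mtg2 at -0.49 (adjusted p = 0.00424) and 0.38 (adjusted p = 0.0162). Nsun4, which methylates the small ribosomal RNA, stood at -0.11 (adjusted p = 0.104), then 0.33 (adjusted p = 0.00144) and against Control-Veh 0.21 (adjusted p = 0.0237). The GTPase Noa1 had 0.33 (adjusted p = 0.00832) and 0.32 (adjusted p = 0.0242) in the same 2 comparisons with treated hearts.

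Of 20 mitochondrial aminoacyl-tRNA synthetases and partners, which charge transfer RNAs with amino acids, 6 fell and 10 rose, with medians of -0.22 and 0.27. Ears2 stood at -0.45 (adjusted p = 0.00702) and 0.44 (adjusted p = 0.00882), Hars2 at -0.33 (adjusted p = 0.00783) and 0.23 (adjusted p = 0.0435), and Aars2 at -0.40 (adjusted p = 0.0103) and 0.39 (adjusted p = 0.0130). Gatb rose with TYA-018 by 0.41 (adjusted p = 0.00588) and Cars2 by 0.53 (adjusted p = 0.00643). Of 21 genes of mitochondrial transcription and RNA processing 5 fell and 5 rose, with medians of -0.15 and 0.20. Hsd17b10, a part of mitochondrial RNase P, stood at -0.54 (adjusted p = 0.00475) with the model. The RNA polymerase Polrmt stood at -0.22 (adjusted p = 0.0283) and 0.20 (adjusted p = 0.0401), and Tbrg4, which stabilises mitochondrial RNAs, at -0.20 (adjusted p = 0.0394) and 0.29 (adjusted p = 0.00893). Tfam, which packs and transcribes mitochondrial DNA, rose with TYA-018 by 0.30 (adjusted p = 0.0158). A list of 13 regulators also held the proteases Clpp and Lonp1. Of these 13 genes 2 fell (Esrra and Clpp) and 3 rose (Esrra, Esrrb and Lonp1), with medians of -0.07 and -0.01. With the model 8 were below 0 and 5 above, and with TYA-018 7 were below 0 and 6 above. Nrf1, Gabpa and Yy1, whose motifs were searched above, were not called. Nrf1 stood at -0.07 and -0.04, Gabpa at 0.01 and -0.20, and Yy1 at 0.13 and -0.19. Ppargc1a, also not called, stood at 0.34 and -0.12. The nuclear receptor Esrra stood at -0.20 (adjusted p = 0.0278) and 0.29 (adjusted p = 0.00619), though Esrra and Tbrg4 turned above 0 with the model when effective lengths entered. The protease Lonp1 rose with TYA-018 by 0.31 (adjusted p = 0.00869).

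The messenger RNAs that this ribosome translates included called genes in the opposite directions. Of the 13 mitochondrially encoded messenger RNAs, 4 rose with the model and 6 fell with TYA-018, with medians of 0.23 and -0.30. Of all genes 10.9% were called higher with the model and 10.4% lower with TYA-018. Not all 13 moved this way. With the model 4 were below 0, down to -0.54, and with TYA-018 4 were above 0, up to 0.43, none of them called. The 2 described here were picked by their values and do not stand for these. mt-Nd5, a subunit of complex I, averaged 20244 ± 3283 CPM for C1 to C4, 29252 ± 2732 for V1 to V4 and 18836 ± 4692 for T1 to T4 (SD, n = 4). It stood at 0.53 (adjusted p = 0.0382) and -0.64 (adjusted p = 0.0203). mt-Co1, the catalytic core of complex IV, stood at 0.47 (adjusted p = 0.0133) and -0.30 (adjusted p = 0.0811). The mitochondrially encoded share of counts was 37.0 to 40.6% over C1 to C4, 43.1 to 47.7% over V1 to V4 and 35.4 to 41.2% over T1 to T4. HFpEF-Veh differed from each of the others at p = 0.0286 (two-sided exact permutation test, the smallest p it can give, 0.0343 adjusted over 6 tests). The part of this share in the values of the ribosomal protein genes was not tested. Without these genes and globin in the table, 14 members were called lower with the model, beside 10.3% of all genes. With TYA-018 21 were called higher, beside 8.79%.

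Nuclear genes of complex I, which needs some of those subunits, were called in the directions of the ribosomal proteins. Of 37 genes of complex I subunits 6 fell with the model and 11 rose with TYA-018, with medians of -0.26 and 0.28. Of all genes 10.3% fell with the model and 8.93% rose with TYA-018. Of 78 genes of cytosolic ribosomal proteins 1 fell and 1 rose with the model, and 3 fell and 3 rose with TYA-018. Their medians were -0.14 and 0.09, beside -0.15 and 0.20 in the mitochondrial family. With the model 67 of the 78 were below 0, and with TYA-018 51 were above 0. The downward shift with the model was thus not particular to the mitochondrial family. Reads of cytosolic ribosomal protein genes can be shared with their many pseudogenes. The difference between these families was not tested.

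**Figure D4:**
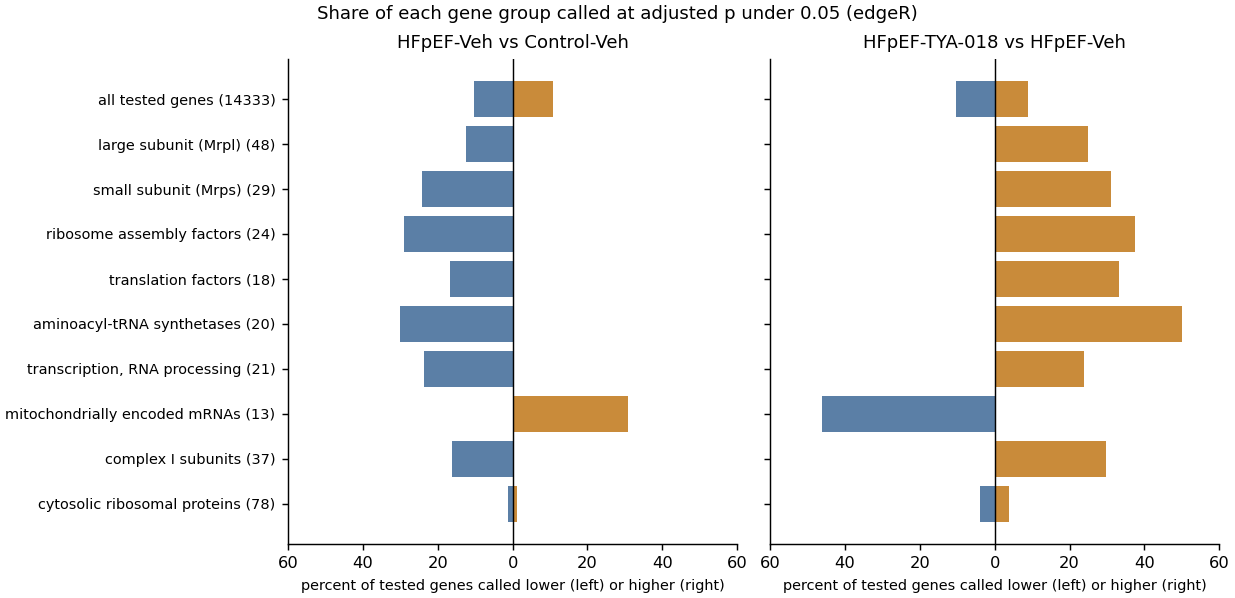
Percent of tested genes called lower (left of 0) or higher (right of 0) in each gene group, with the number tested in brackets. Subunits and translation lists have called genes on the left with the model and on the right with TYA-018, and the mitochondrially encoded messenger RNAs have them on the opposite sides.

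Markers of several cell types moved with the same groups. Of all genes 10.3% were called lower and 10.9% higher with the model, and 10.4% lower and 8.93% higher with TYA-018. The summed CPM of 8 heart muscle cell markers was 23925 to 34544 over C1 to C4, 19214 to 21471 over V1 to V4 and 23013 to 25807 over T1 to T4. Of these 8 markers 6 fell with the model and 4 rose with TYA-018, with medians of -0.52 and 0.27. The 7 fibroblast markers summed to 453 to 689.6, 727 to 1029 and 466 to 664 CPM, with 4 called higher with the model and 5 lower with TYA-018. The highest control value was that of C1. The 6 macrophage markers summed to 77.8 to 92.2, 121 to 155 and 83.7 to 97.8 CPM, and the 5 endothelial markers to 672 to 763, 822 to 990.4 and 640.2 to 794 CPM. All 6 macrophage markers and 3 of the 5 endothelial markers rose with the model, and 4 and 3 fell with TYA-018. The sum of the 5 red cell markers averaged 2020.3 ± 345, 8203 ± 4159 and 2911 ± 569 CPM (SD, n = 4), and all 5 rose with the model and fell with TYA-018. Of 4 fat markers 2 passed the filter, and they summed to at most 0.922 CPM. Of 4 atrial markers 3 passed it, and they summed to 126 to 244, 61.8 to 147 and 139 to 164 CPM. Nearly all of this sum was Nppa, with means of 190.7, 111.8 and 148.5 CPM. Group means of Myl4 were at most 2.34 CPM and those of Myl7 at most 0.186 CPM. The part of these cell types in the fall and rise of the ribosomal proteins was not tested.

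**Figure D5:**
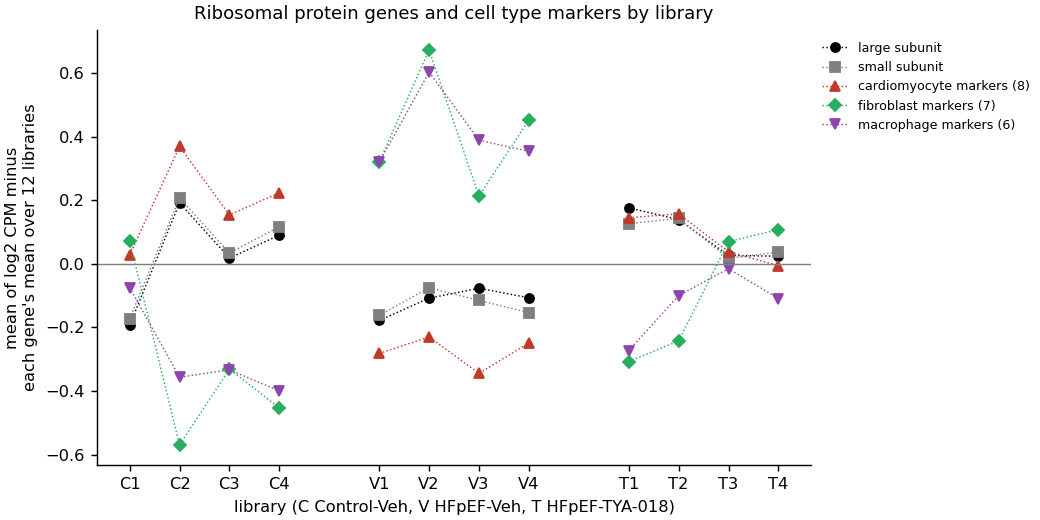
Mean over genes of log2 CPM, centred per gene over 12 libraries, for the large and small subunit genes and 3 lists of cell type markers. The ribosomal protein genes and the heart muscle markers are lowest in V1 to V4 apart from C1, where the ribosomal protein genes are as low, and the fibroblast and macrophage markers are highest in V1 to V4.

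The globin content of the libraries also moved with the groups. The globin share of counts was 0.154 to 0.240% over C1 to C4, 0.420 to 1.32% over V1 to V4 and 0.255 to 0.341% over T1 to T4, and each pair of groups differed at p = 0.0286 (two-sided exact permutation test, the smallest it can give, 0.0343 adjusted over 6 tests). With this share as a covariate no gene of the family was called in any comparison by edgeR. The loss of calls was general, with 0.00698% of all genes lower with the model and 0.014% higher with TYA-018. Between treated hearts and controls 1.42% were lower and 1.66% higher. In the family 1, 4 and 7 genes had an unadjusted p under 0.05 in the 3 comparisons. The medians kept their signs at -0.10 and 0.16. The globin share does not overlap between any of the groups, so the covariate and the groups cannot be told apart. With effective lengths in the fit, 3 of the 77 genes were called lower with the model (Mrps15, Mrpl39 and Mrpl57), beside 4.44% of all genes. With TYA-018 7 were called higher, beside 3.94% of all genes. Those 7 were Mrpl9, Mrpl10, Mrpl1, Mrps15, Mrpl37, Mrpl38 and Mrps14.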

How the data were processed

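Left ventricular poly(A) RNA (stranded kit) of 12 mice was sequenced. The authors trimmed reads with fastp, quantified them with Salmon 1.6.0 (version per the submitters' processing notes) and summed transcripts to genes with tximport. Their methods name mouse GENCODE M25, whereas the labels name the human build hg38, which was not followed. The deposited tables hold an estimated count, a TPM and an effective length in bases per gene and library, and the authors' effective length belongs to no standard unit.

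The rounded estimated counts went into edgeR 4.0.16, run under R 4.3.3 (filterByExpr by group, TMM, all 12 libraries, 9 residual degrees of freedom, two-sided quasi-likelihood F test, Benjamini-Hochberg over 14333 genes, called under 0.05). Medians of a gene group have no test. Alternatives were DESeq2 1.42.0 and limma 3.58.1 on log2 TPM with pseudocounts of 1 and 0.1, and those named in the closing section. The code was tested on simulated data. Genes, lists and roles were chosen with earlier results of these data known. Named genes were, per comparison and subunit, the 6 called members with the smallest p and any called against the majority, called members of fixed roles, the 3 highest and 3 lowest members by mean TPM of each subunit, and members fixed by name. From other lists came called genes among the 3 smallest p. Mrpl19, Mrpl23, Mrpl34, Mrpl35, Mrpl47 and Mrps9 and the mitochondrially encoded genes were named after their values were seen. So were the regulators Nrf1, Gabpa, Yy1 and Ppargc1a. Positions are from RefSeq and GENCODE M21 on GRCm38. Shared sequence was counted as 31-base words found in transcripts of other genes.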

Additional observations from a re-analysis of the deposited data

Results flagged for a closer look

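In 7 of 237 groups of 4 libraries screened, 1 library stood so far from the other 3 that its gap to the nearest exceeded the critical value of Dixon's test, a frequency below the 1 in 20 that chance gives. Of the family, control library C1 had Mrpl45 at 34.2 CPM where the other 3 had 40.2 to 40.3, and HFpEF-Veh library V3 had Mrpl37 at 44.5 CPM where the other 3 had 39.6 to 39.8. C1 was also low for the protease Lonp1, with 87.7 CPM where the other 3 had 100.2 to 102, and for Mterf2, of a family of mitochondrial transcription termination factors, with 10.3 CPM where the other 3 had 13.1 to 13.5. V2 was low for Elac2, which trims transfer RNAs, with 13.8 CPM where the other 3 had 15.4 to 15.7, and C3 for Hars2, with 12.6 CPM where the other 3 had 13.4 to 13.5. T1 was high for Rpusd4, with 8.84 CPM where the other 3 had 7.37 to 7.61.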

How the results depend on the processing

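Under RLE scaling, without a low-count filter, and without mitochondrially encoded and globin genes, the counts of called members stayed within 1.5 times and the medians within the spread between libraries. Fitted on the 2 groups compared, 8 members were lower with the model, 32 higher with TYA-018, and 1 higher in treated hearts than in controls. Of all genes 8.89%, 9.95% and 2.45% were called in the same way. The length offset gave 3 and 7, beside 4.44% of all genes lower with the model and 3.94% higher with TYA-018. On log2(TPM + 1) the counts were 1 and 32 with medians of -0.28, 0.49 and, for treated against control, 0.21, beside medians of -0.07, 0.17 and 0.08 over all genes, of which 0.844% were called lower with the model and 15.5% higher with TYA-018. With a pseudocount of 0.1 they were 1 and 35 with -0.31, 0.55 and 0.23, where all genes had medians of -0.17, 0.34 and 0.17. Of all genes 1.45% were then lower with the model and 17.8% higher with TYA-018. On log2(TPM + 1) without a filter 0 of 80 were lower with the model, beside 0.111% of all genes. With TYA-018 19 were higher, beside 4.91%. The medians were -0.27, 0.49 and 0.21, beside -0.02, 0.06 and 0.02 over all genes. TPM was also rescaled to protein-coding genes, near the study's scale but without its filter on detected genes. There 3 were lower and 1 higher (Mrpl12, 0.26) with the model, and 8 higher with TYA-018, with a median of 0.0931. On that scale 3.1% of all genes were lower and 4.85% higher with the model, and 2.67% higher with TYA-018. The globin covariate gave 0 and 0, beside 0.00698% of all genes lower with the model and 0.014% higher with TYA-018. DESeq2 called 4 members higher in treated hearts than in controls, beside 5.42% of all genes. Signs reversed under the length offset and the rescaled TPM for Esrra (0.021 and 0.054) and Tbrg4 (0.027 and 0.061) with the model, and for Mrps11 (-0.13 and -0.11) and Mrps23 (-0.015 and -0.028) with TYA-018. The cause was not tested. With 1 library left out, 4 to 34 members were lower and 0 to 2 higher with the model (median -0.22 to -0.10), 7 to 31 higher with TYA-018 (0.18 to 0.23), and 0 to 2 lower and 0 to 1 higher in treated hearts than in controls (-0.04 to 0.10). Over the same fits 6.33% to 13.4% of all genes were lower with the model and 4.49% to 10.6% higher with TYA-018. No paired analysis was possible because the animal numbers in the labels differ from group to group.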
